A study of Mus musculus with 6 samples.

Results

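H19 and 9 further imprinted genes of the embryonic growth network (Igf2, Igf2r, Cdkn1c, Dlk1, Meg3, Grb10, Plagl1, Peg3 and Ndn) were followed in induced regulatory T (iTreg) cells that lacked miR-31. All 10 were found by the gene name that the array design gives to its probes, which yielded 22 of the 41174 probes. H19 was selected on its fall in cKO cells, so its values are given as a description and without a test. The other members were chosen for their known imprinting. The cells came from the spleens of 6-week-old miR-31fl/fl CD4Cre (cKO) mice and miR-31fl/fl control mice, 3 of each, and both genotypes carried the floxed miR-31 allele. Only the cKO mice carried the Cre transgene, whose CD4 promoter also acts in T cells that later become CD8+, and a Cre control without the floxed allele was not analysed here. Naive T cells, sorted as CD4+CD25-Foxp3gfp-CD62Lhi with a GFP reporter of Foxp3 and each sample from 1 mouse, were cultured for 4 days with plate-bound anti-CD3 at 5 µg/ml, anti-CD28 at 2 µg/ml, TGF-β1 at 5 ng/ml and IL-2 at 40 ng/ml. RNA of each mouse was hybridised to 1 one-colour Agilent whole mouse genome array.

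Imprinted genes are read from a single parental copy, a choice set by DNA methylation laid down in the egg or the sperm. H19, a long non-coding RNA transcribed from the maternal copy, shares its control region with Igf2, a growth factor transcribed from the paternal copy. CTCF binds that region on the maternal chromosome and keeps Igf2 silent there. Most genes of the network are strongly transcribed in the fetus and placenta and are turned down after birth.

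H19 is the host transcript of miR-675, and the cKO cells were made to lack miR-31. The sequences of both H19 probes and of both miRNAs are shown because they define what was measured and what was deleted. The probe sequences come from the array files, with mm9 positions. The mature miRNAs are from RefSeq (GRCm38.p6), with the seed, bases 2 to 8, in capitals.
H19, brighter probe: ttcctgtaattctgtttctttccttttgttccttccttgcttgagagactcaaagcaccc
H19, dimmer probe: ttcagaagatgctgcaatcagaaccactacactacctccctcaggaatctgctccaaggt
mmu-miR-31-5p: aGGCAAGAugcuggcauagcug
mmu-miR-31-3p: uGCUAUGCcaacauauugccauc
mmu-miR-675-5p: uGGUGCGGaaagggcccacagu
mmu-miR-675-3p: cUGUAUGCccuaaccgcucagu
The brighter H19 probe (A_51_P142196) was annotated to the minus strand at chr7:149761769-149761828, an interval as long as the probe. The dimmer one (A_52_P571350) was annotated to chr7:149762018-149762165 on the same strand, an interval of 148 bases and so 88 bases longer than the probe of 60 bases. Neither H19 probe shared a run of 20 bases with any other probe of the array, which was counted as 0 matches for each. The 4 seeds differed from one another. No probe was named for miR-31 or miR-675, so neither the deletion nor the level of the miRNA that H19 hosts was checked on these arrays.

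Each array held 45018 spots. Of its 43379 non-control spots, between 49.3% and 57.7% were well above background, by the flag of the scanner software. Levels below are the log2 processed signal minus the array's own 75th percentile, so that 0 is the level of a rather bright probe and the lowest signals well above background lay between -6.44 and -5.48. The 3 cKO arrays and control 1 shared a slide and a scan, and controls 2 and 3 shared another, so that slide and genotype are partly confounded. Tests were run with limma on the 22281 probes whose signal stood well above background on 3 or more arrays, and the p-values measure the spread between these mice, which were labelled as separate animals. Benjamini-Hochberg adjustment left 29 of these probes (0.13%) with p under 0.05, and 5118 (23.0%) were under 0.05 without it. All 6 iTreg markers examined, Foxp3, Il2ra, Ctla4, Tnfrsf18, Itgae and Ikzf4, were well above background on every array. So were the T-cell genes Cd3d, Cd5, Lck and Cd4, which fits the labelled cell type. The CD8 T and NK cell markers Cd8b1, Klrd1 and Cd8a were also well above background on every array. Klrd1 stood at 3.03, 0.60 and 3.19 in cKO and 0.90, 0.18 and 0.07 in control cells. Cd8a stood at 0.57, -0.23 and -0.94 in cKO and 1.07, 0.27 and 0.63 in control cells. Cd8b1 stood at 1.46, 1.68 and 2.02 against 1.81, 1.77 and 2.09. Of the same list, Ncr1 was well above background on 2 cKO and 0 control arrays, and Klrb1c on none. Foxp3, the lineage factor of Treg cells, stood between 2.53 and 3.23 in cKO and between 3.48 and 3.81 in control cells (limma log2 difference -0.61, adjusted p = 0.19).

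Of the 22 member probes, 9 passed the filter, and these represented 7 of the 10 genes. A further 2 probes were well above background on 1 array each, and 11 on none. Meg3, a maternally transcribed long non-coding RNA next to Dlk1, was not well above background on any array with any of its 5 probes. The same held for the 3 probes of Peg3, a paternally transcribed zinc finger gene. Ndn, which encodes necdin, a growth suppressor of postmitotic cells, had 1 probe, and it was well above background on control 2 alone at a level of -4.78. For Meg3 and Peg3 the arrays thus gave only an upper bound in both genotypes, and for Ndn in cKO cells.

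H19 was lower in cKO cells with both probes, and it varied widely within each genotype. The processed signal of the brighter probe was 305.5, 115.3 and 19.8 in cKO mice 1 to 3 and 371.5, 664.2 and 1552 in control mice 1 to 3. These are levels of -1.72, -3.12 and -5.57 in cKO and of -1.56, -0.65 and 0.59 in control cells. cKO 3 was the lowest array and the single one on which this probe was not well above background, control 3 was the highest, and cKO 1 lay next to control 1. The dimmer probe gave levels of -3.43, -4.09 and -5.14 in cKO and -3.26, -2.16 and -0.83 in control cells. It put the 6 arrays in the same order as the brighter probe, and it was well above background on 1 cKO array and all 3 control arrays.

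The mean level of the brighter H19 probe was -3.47 ± 1.95 (SD, n = 3) in cKO and -0.54 ± 1.08 (SD, n = 3) in control cells. The log2 difference was -2.93, a 7.61-fold lower signal in cKO. For the dimmer probe the means were -4.22 ± 0.86 and -2.08 ± 1.22 (SD, n = 3 each), with a log2 difference of -2.14. The cKO means include arrays not well above background, 1 of 3 with the brighter and 2 of 3 with the dimmer probe, so the sizes of both differences are uncertain. No cKO array reached a control array with either probe, a pattern that 20.4% of all tested probes showed in this direction and that the choice of H19 had already used. The gap between the nearest arrays of the 2 genotypes, cKO 1 and control 1, was 0.16 with the brighter and 0.17 with the dimmer probe on the log2 scale, less than the SD within either genotype. cKO 1 and control 1 therefore did not differ beyond the replicate spread, which is no test of the genotypes as groups. In a bulk sample, fewer H19-positive cells and less H19 per cell cannot be told apart.

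**Figure D1:**
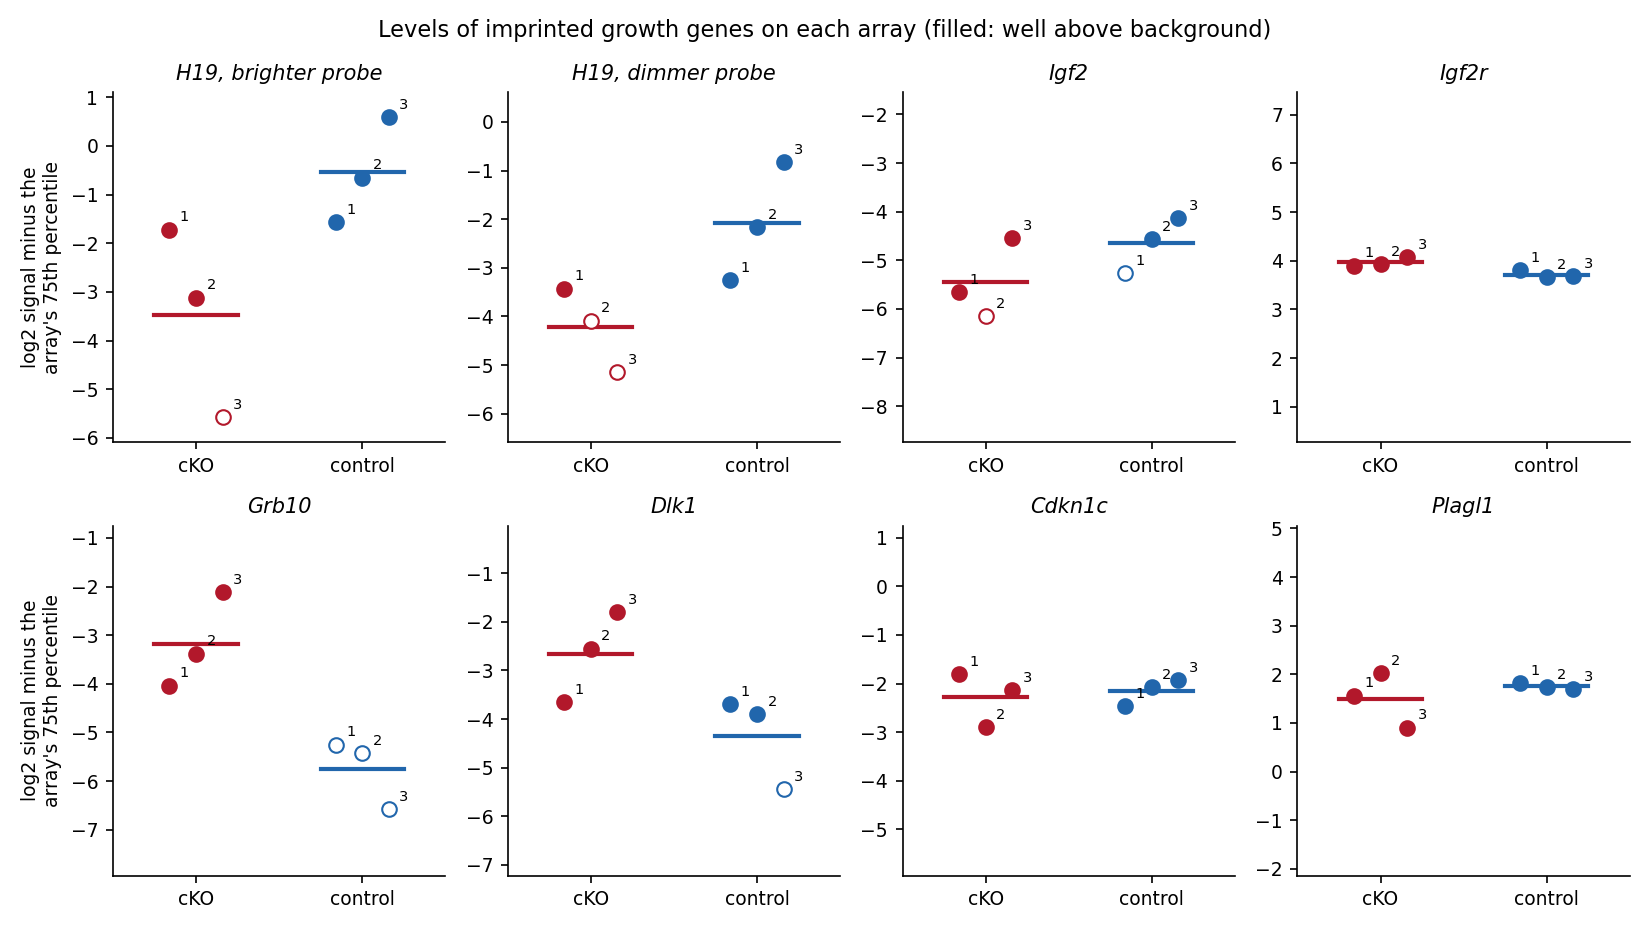
Levels of the 7 imprinted genes that passed the filter, on each of the 6 arrays. The vertical axes give the log2 signal minus the array's 75th percentile and span the same number of log2 units in every panel, red and blue points are cKO and control mice labelled by replicate number, bars are group means, and open points were not well above background. Both H19 probes are highest in control 3 and lowest in cKO 3, with cKO 1 beside control 1, while Grb10 has filled points in cKO cells only.

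The spread of H19 within genotypes was large against that of other probes. The residual SD of the brighter probe, the spread that remained after the genotype means, was 1.58 on the log2 scale, and that of the dimmer probe was 1.05. The median over all tested probes was 0.20, and 96 probes, 0.431% of those tested, had a larger residual SD than the brighter H19 probe. Across all 6 arrays this probe spanned 6.16 log2 units and the dimmer one 4.31.

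The size of the H19 difference depended on which arrays were compared, though its sign did not. On the slide that held both genotypes, the mean of the 3 cKO arrays was 1.91 log2 units below control 1 with the brighter probe and 0.96 below it with the dimmer one. Controls 2 and 3, on the other slide, were on average 1.53 and 1.77 log2 units above control 1 with the same probes. Without cKO 3 the brighter probe differed by -1.88 between genotypes, without cKO 1 by -3.80, without control 1 by -3.44 and without control 3 by -2.36. After normexp background correction with 75th-percentile scaling it differed by -1.16, while the median difference over all tested probes moved from -0.04 to 0.10, and after normexp with quantile normalization by -1.74. The part of the slide in the difference cannot be told apart from that of the mice for controls 2 and 3.

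**Figure D2:**
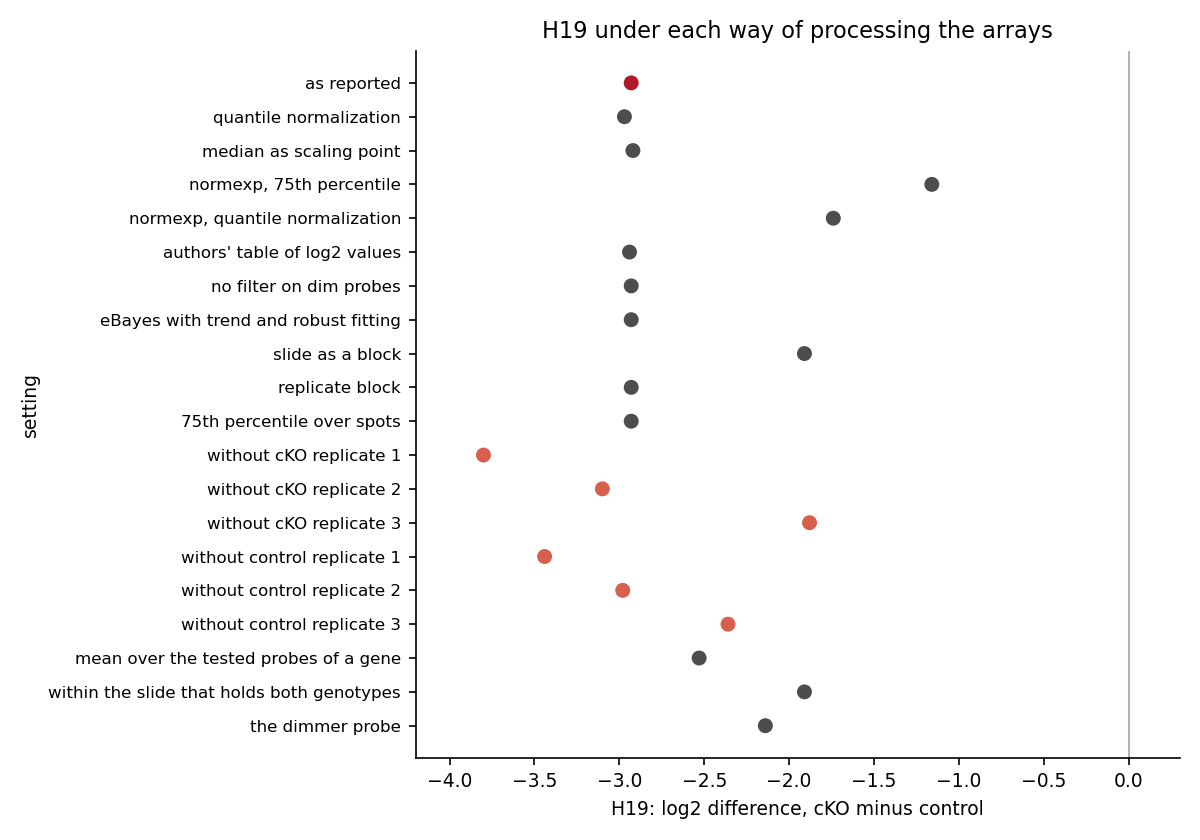
The log2 difference of H19 between cKO and control cells (horizontal axis) under each way of processing the arrays (vertical axis), each point being 1 setting, with those that leave out 1 array in orange. All points lie below 0, between -3.80 without cKO replicate 1 and -1.16 after normexp with 75th-percentile scaling. The selection of H19 on its fall favours this sign.

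The 5 probes with the profile nearest to the brighter H19 probe belonged to Actr3b, Nlrp6 (with 2 probes), Pigz and Prok1. Likeness was the root mean square difference over the 6 arrays after each probe's own mean was subtracted, among 20348 probes of other genes that were well above background on 5 arrays or more. Actr3b, an actin-related protein, was nearest at 0.53 log2 units, and its levels were 1.16, -0.96 and -2.05 in cKO and 1.60, 1.67 and 2.73 in control cells. The probes of Nlrp6, an innate immune sensor, followed at 0.57 and 0.62. Pigz, a mannosyltransferase of glycolipid anchor synthesis, stood at 0.61 and Prok1, a secreted prokineticin, at 0.64. For comparison, the median of this measure over all the probes was 1.93, and the dimmer H19 probe, well above background on 4 arrays, differed from the brighter one by 0.75. All 5 had their lowest value in cKO 3 and their highest in control 3, as H19 did. Their choice by likeness to H19 on these arrays favours this, so it is no separate result.

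**Figure D3:**
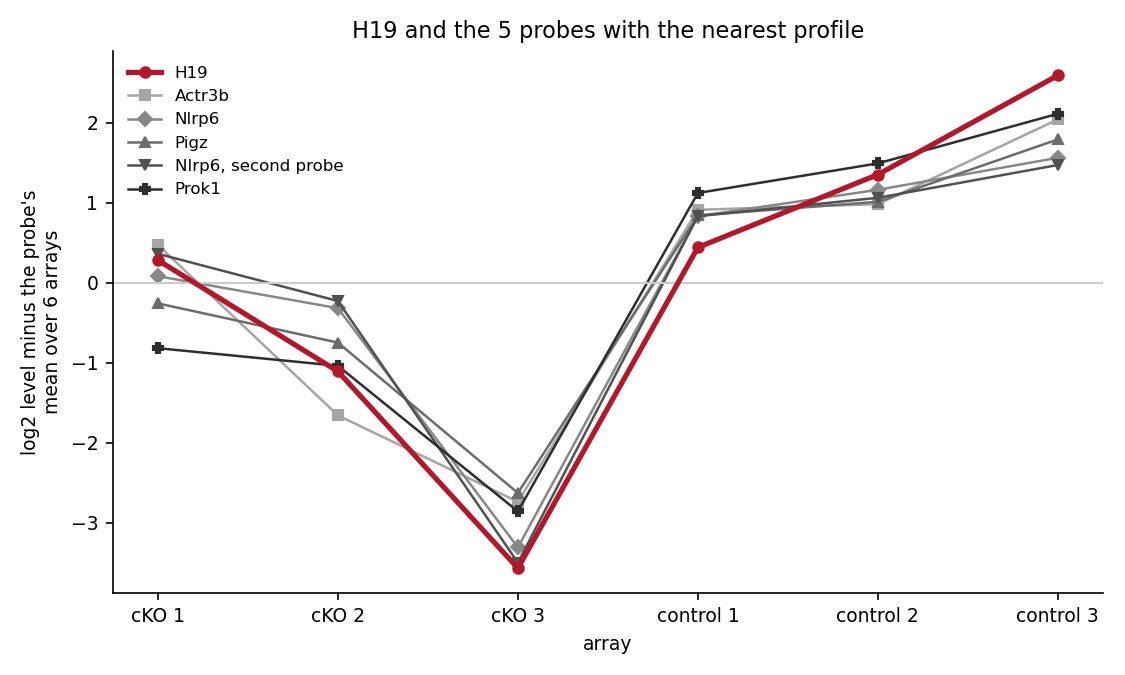
Profiles of the brighter H19 probe (red) and of the 5 probes nearest to it (grey), with the array on the horizontal axis and the log2 level minus the probe's own mean over 6 arrays on the vertical axis. Lines join the values of 1 probe and imply no order of the mice. All 6 profiles are lowest in cKO 3 and highest in control 3, which the choice of the 5 probes by likeness to H19 favours.

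Igf2, the growth factor that shares its control region with H19, was close to the background on these arrays. Its brighter probe was printed in several spots per array and lay 74.8 kb from the brighter H19 probe in mm9. Its levels were -5.65, -6.15 and -4.54 in cKO and -5.26, -4.57 and -4.13 in control cells. The arrays of the 2 genotypes overlapped, since cKO 3 was above controls 1 and 2. The probe counted as well above background on cKO 1 through 1 of 9 spots, on cKO 3 and control 2 through 6 of 7 spots each, and on control 3 through all 7, while no spot of cKO 2 or control 1 reached it. The log2 difference was -0.79 (limma 95% interval -1.94 to 0.36, adjusted p = 0.34), and it turned to 0.51 after normexp with 75th-percentile scaling. A second Igf2 probe was not well above background on any array.

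Igf2r, which encodes the scavenger receptor that carries IGF2 to lysosomes and is transcribed from the maternal copy, was bright in both genotypes. Its levels were 3.90, 3.93 and 4.08 in cKO and 3.80, 3.66 and 3.69 in control cells. Every cKO array was above every control array, as 16.2% of all tested probes were, with a gap of 0.10 between the nearest pair. The log2 difference of 0.25 (limma 95% interval 0.00 to 0.50, unadjusted p = 0.051, adjusted p = 0.22) did not pass the threshold, and it was 0.01 after normexp with 75th-percentile scaling.

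Grb10, a maternally transcribed adaptor that binds the insulin and IGF1 receptors and restrains their signal, was read by 3 probes, of which 1 was well above background, on the cKO arrays alone. The processed signal of this probe was 60.96, 96.16 and 218.3 in cKO and 28.8, 24.1 and 10.8 in control cells. Its levels were -4.04, -3.38 and -2.11 in cKO and -5.25, -5.43 and -6.58 in control cells. cKO 3 was the highest array and control 3 the lowest, and the genotypes were separated by 1.21 log2 units. The probe passed the filter through the cKO arrays only, and a probe that does so had to differ between the genotypes, so that the separation is no evidence about Grb10. As processed here, the mean cKO level was 5.44-fold above a mean limit of the control arrays. That limit took, for each control array, the higher of its measured signal and its lowest signal well above background. The value compares group means and is no minimum over single arrays. The adjusted p of this limma fit was 0.12 and missed the threshold. Other settings gave smaller sizes, so 5.44 is no bound across settings. The log2 difference was 2.08 within the slide that held both genotypes, 1.40 after normexp with 75th-percentile scaling and 0.84 after normexp with quantile normalization. The other 2 probes of Grb10 were not well above background on any array, so the probes of the gene disagreed.

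Dlk1, a paternally transcribed transmembrane inhibitor of adipocyte differentiation, stood higher on the cKO arrays, without passing the adjusted threshold. The levels of its brighter probe were -3.65, -2.55 and -1.80 in cKO and -3.69, -3.90 and -5.44 in control cells. cKO 1 lay within 0.04 log2 units of control 1, and control 3 was the array on which the probe was not well above background. The log2 difference was 1.68 (limma 95% interval 0.15 to 3.20, unadjusted p = 0.036, adjusted p = 0.20). It was 1.02 within the slide that held both genotypes, 1.13 without control 3 and 0.73 after normexp with quantile normalization. The second Dlk1 probe was well above background on cKO 3 alone and was not tested.

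H19, Grb10 and Dlk1 thus had their extreme values on the same arrays. cKO 3 had the lowest H19 and the highest Grb10 and Dlk1 of all arrays, and control 3 the reverse. On the slide that held both genotypes, cKO 1 was the cKO array nearest to control 1 with each of these genes. Some of these values were not well above background: the brighter H19 probe on cKO 3, Dlk1 on control 3 and Grb10 on every control array. The order of the arrays is uncertain there, and Grb10 passed the filter through cKO alone. Grb10 and Dlk1 differed from each other by a root mean square of 0.50 log2 units over the 6 arrays, by the measure used for H19. That measure includes these values, so it is no evidence of a shared profile. Opposite extremes on cKO 3 and control 3 were not particular to the network. Of the 6 iTreg markers, Foxp3, Il2ra, Ctla4 and Tnfrsf18 had them too, and Itgae and Ikzf4 did not. The tested members Igf2, Igf2r, Cdkn1c and Plagl1 did not have them either. The share of all tested probes with this pattern was not counted.

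Cdkn1c and Plagl1 were well above background on all arrays with their brightest probes, and their genotypes overlapped. Cdkn1c, the maternally transcribed CDK inhibitor p57, had levels of -1.80, -2.90 and -2.14 in cKO and -2.46, -2.07 and -1.93 in control cells. Its log2 difference was -0.12 (limma 95% interval -0.86 to 0.61, adjusted p = 0.82), and the sign turned without cKO 2 (0.19) and within the slide that held both genotypes (0.18). Plagl1, a paternally transcribed zinc finger factor that acts on other imprinted genes, was bright with levels of 1.56, 2.02 and 0.90 in cKO and 1.82, 1.73 and 1.70 in control cells. The control arrays were close together (SD 0.06, n = 3) and the cKO arrays lay on both sides of them (SD 0.56, n = 3). The log2 difference of -0.25 (limma 95% interval -0.93 to 0.42, adjusted p = 0.58) was 0.04 without cKO 3. A dimmer Plagl1 probe, well above background on 5 arrays, differed by -0.02 (limma 95% interval -0.65 to 0.61, adjusted p = 0.97).

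None of the 7 tested probes of members other than H19 passed the adjusted threshold in limma (0 of 7, against 0.13% of all tested probes). The 2 of 7 with an unadjusted p under 0.05, against 23.0% of all tested probes, were those of Dlk1 and of Grb10, which passed the filter through cKO alone, and the share is near the background. The methods' t-test on the same values gave 0 of 7 after Benjamini-Hochberg adjustment and 2 of 7 before it, here Grb10 and Igf2r. The intervals nevertheless reach sizeable differences: they allow Igf2 to be up to 1.94 log2 units lower in cKO and Dlk1 up to 3.20 higher.

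**Figure D4:**
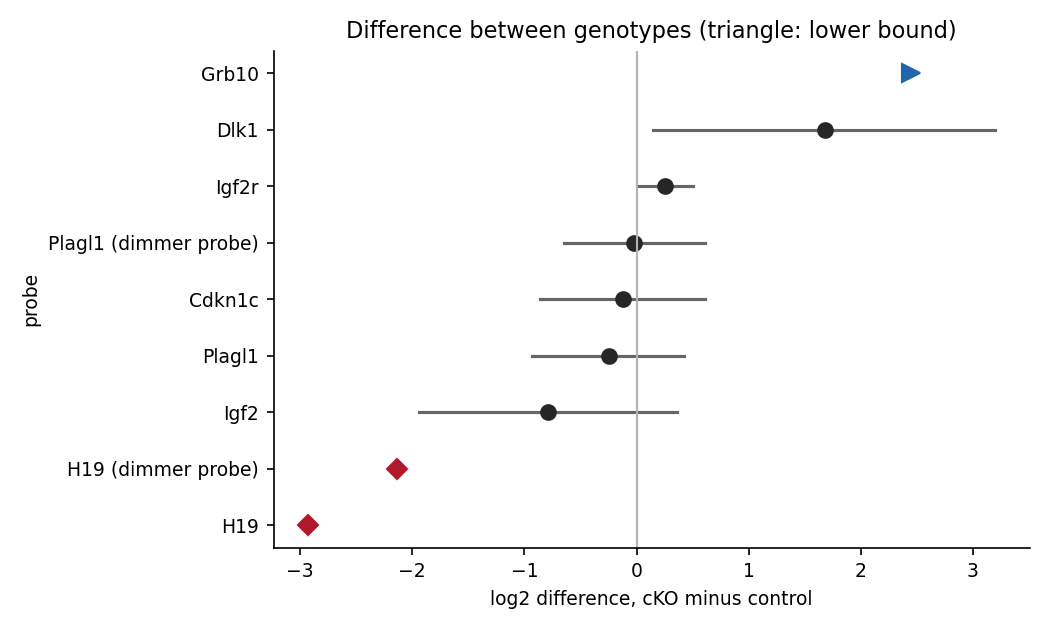
Log2 difference between cKO and control cells (horizontal axis) for the 9 member probes that passed the filter (vertical axis), with 3 arrays per genotype. Circles carry the unadjusted 95% interval from limma, and red diamonds are the H19 probes, which were selected on this difference and carry none. The triangle is the lower bound of Grb10, whose control arrays were not above background, and it compares group means and not single arrays. This bound holds only for the processing shown, and other settings gave smaller sizes. The interval of Dlk1 runs from 0.15 to 3.20, and those of Igf2, Cdkn1c and both Plagl1 probes include 0.

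Genes near the members on the same chromosomes were looked at after the values had been seen. Within 500 kb on either side of the brighter H19 probe, 12 genes that are not members had a tested probe, besides Igf2, which is described above (log2 difference -0.79). Their log2 differences ran from -0.27 to 0.74 with a median of 0.04, and 0 of them passed the adjusted threshold. An unadjusted limma p under 0.05 was found for 4 of the 12, against 23.0% of all tested probes. Among these 12, the lower end was Mrpl23, a mitochondrial ribosomal protein gene, at -0.27 (limma adjusted p = 0.19). The upper end was Cd81, a tetraspanin, at 0.74 (limma adjusted p = 0.17). The difference of H19, for which it had been selected, lay outside the range of its tested neighbours, Igf2 included. Around Grb10, 7 other genes differed by -0.85 to 0.94, with 0 past the adjusted threshold. Of these 7, 1 had an unadjusted limma p under 0.05, against the same 23.0% of all tested probes.

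No other imprinted gene passed the adjusted threshold. Of 50 such genes on the array outside the members, 24 had a tested probe, 21 were not well above background on any array, and limma called 0 after adjustment. Before adjustment, 2 of the 24 were higher and 1 lower in cKO at p under 0.05, against 23.0% of all tested probes in either direction. The median log2 difference of the 24 was 0.03, against -0.04 over all tested probes. The brightest were Nap1l4, a histone chaperone (-0.01, adjusted p = 0.96), Cd81, and Commd1, a copper and NF-κB regulator (-0.19, adjusted p = 0.49). Kcnq1ot1, the paternally transcribed non-coding RNA that silences Cdkn1c, was at 0.87, 0.84 and 0.56 in cKO and 0.90, 1.01 and 1.19 in control cells (log2 difference -0.28, limma adjusted p = 0.27). Airn, the non-coding RNA that silences Igf2r, differed by -0.23 (limma adjusted p = 0.48). These RNAs were named after their values were seen, for their place beside members.

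On the IGF and insulin side, 8 of 17 genes on the array were tested and 0 passed the adjusted threshold in limma. The ligand Igf1 was not tested, with 2 control arrays and no cKO array well above background. The brightest were the IGF-binding protein Igfbp7 (0.01, adjusted p = 0.98), the insulin-degrading enzyme Ide (-0.38, adjusted p = 0.28) and the IGF-binding protein Igfbp4 (-0.33, adjusted p = 0.23). An unadjusted p under 0.05 was found for 2 of the 8, a share near the 23.0% of all tested probes. These were Igf1r and Insr, named after their values were seen. Igf1r, the IGF1 receptor, stood at 1.12, 1.31 and 1.94 in cKO and 0.55, 0.59 and 0.81 in control cells, a log2 difference of 0.81 (limma 95% interval 0.25 to 1.36, adjusted p = 0.15). Insr, the insulin receptor, stood at -2.26, -1.79 and -1.29 in cKO and -2.78, -2.73 and -2.65 in control cells, a log2 difference of 0.94 (limma 95% interval 0.35 to 1.53, adjusted p = 0.14). Both receptors were above all control arrays in every cKO array, as 16.2% of all tested probes were, and 2 other genes of the list, Ide and Igfbp4, were below them in every cKO array, as 20.4% of all tested probes were. The median log2 difference of the 8 genes was 0.05.

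Of 23 genes on the array that bind imprinted loci or keep their methylation, 20 were tested and 0 passed the adjusted threshold in limma. At an unadjusted p under 0.05, 1 was higher and 2 lower in cKO, against 23.0% of all tested probes in either direction. The median log2 difference was -0.15, against -0.04 over all tested probes. In 9 of the 20 genes all cKO arrays lay below all control arrays, which 20.4% of all tested probes did. The brightest were Ehmt2, a histone H3K9 methyltransferase (0.32, adjusted p = 0.16), Smchd1, a chromosomal protein of imprinted clusters (-0.01, adjusted p = 0.95), and Trim28, a co-repressor that keeps imprints methylated (-0.32, adjusted p = 0.22). Ctcf, which binds the control region of H19, was at 3.00, 2.83 and 2.65 in cKO and 3.14, 3.14 and 3.26 in control cells, and Dnmt1, the maintenance DNA methyltransferase, at 2.14, 1.94 and 1.37 against 2.25, 2.15 and 2.27. Their log2 differences were -0.35 (limma adjusted p = 0.19) and -0.41 (limma adjusted p = 0.28), and both were named after their values were seen. Zfp57, Dppa3 and Dnmt3l, which act on imprints in germ cells and the early embryo, were not well above background on any array.

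Non-imprinted relatives of the members were also read. All 8 were on the array, 6 were tested, and 0 passed the adjusted threshold in limma. Cdkn1a, the p21 relative of Cdkn1c, was at 3.43, 3.86 and 3.40 in cKO and 2.83, 2.72 and 2.52 in control cells, a log2 difference of 0.88 (limma 95% interval 0.47 to 1.28, adjusted p = 0.097). Plagl2, a relative of Plagl1, differed by 0.09 (limma adjusted p = 0.78), and Cdkn1b, the p27 relative of Cdkn1c, by 0.45 (limma adjusted p = 0.23). Grb7, a relative of Grb10 named after its values were seen, was at 1.45, 0.68 and 0.62 in cKO and -0.61, -0.52 and -0.70 in control cells. Its log2 difference was 1.52 (limma 95% interval 0.95 to 2.10, adjusted p = 0.069). For Cdkn1a, Grb7 and Cdkn1b, 3 of the 6 tested relatives, every cKO array was above every control array, as 16.2% of all tested probes were. The adjusted p missed the threshold for each. An unadjusted limma p under 0.05 was found for 3 of the 6, against 23.0% of all tested probes.

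**Figure D5:**
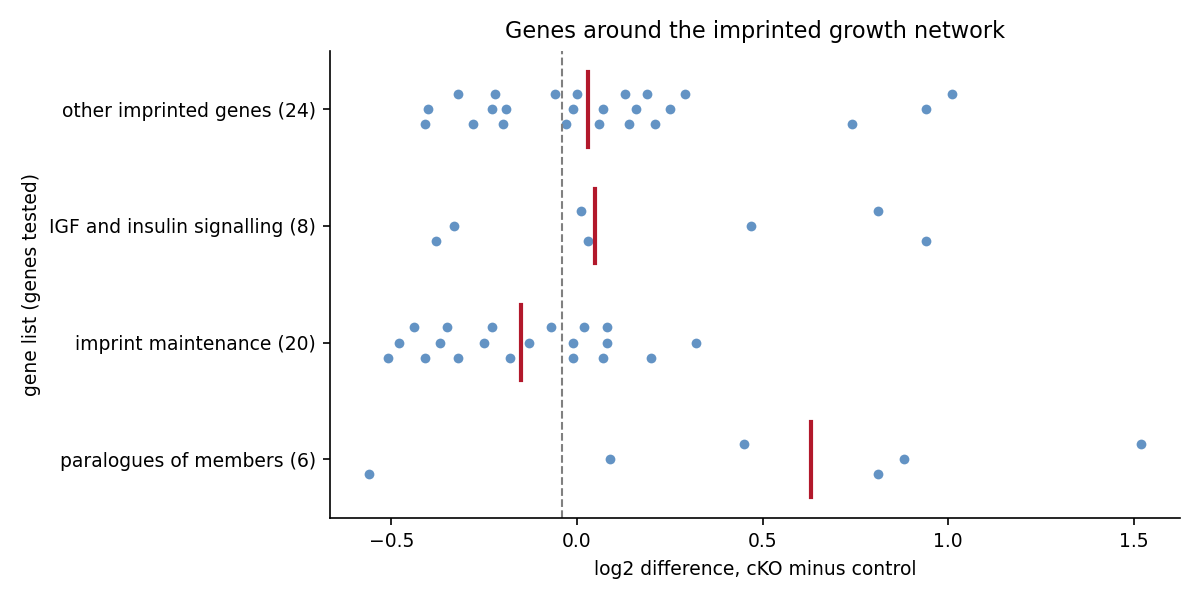
Log2 differences between cKO and control cells (horizontal axis) of the tested genes in 4 lists around the network (vertical axis, with the number of genes tested). Points are genes, each by its brightest tested probe, red bars are list medians, and the dashed line is the median of all tested probes, -0.04. The medians are 0.03, 0.05, -0.15 and 0.63 from top to bottom, and no gene passed the adjusted threshold.

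Markers of other cells that a spleen sort could carry were read beside the members. Sums are on a linear scale where 1 is the array's 75th percentile, and no marker of these lists passed the adjusted threshold in limma. Of 11 stromal markers, Dcn, Lum, Pdgfrb and Postn were not well above background on any array, and the summed level was 30.0 to 38.5 in cKO and 37.7 to 42.3 in control cells. The brightest were Acta2, a smooth muscle actin at 4.85 to 5.23 in cKO and 5.21 to 5.37 in control cells, Col1a2, a collagen at -1.47 to -0.61 and -2.95 to 0.81, and Fbln1, a matrix protein with means of -1.68 and -1.08. Control 3, the highest array for H19, was also the highest for Col1a2 and Fbln1, but Acta2 was highest in control 2 and Sparc, Col1a1 and Col3a1 in cKO 3. The last 3 were named after their values were seen.

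The 8 stem and progenitor markers summed to 99.3 to 104 in cKO and 53.1 to 95.9 in control cells, with Cd34, Gata2 and Meis1 not well above background on any array. Ly6a, which activated T cells also carry, was by far the brightest at 6.52 to 6.61 in cKO and 5.57 to 6.50 in control cells. Procr, the protein C receptor, stood at 2.13 to 2.72 and 1.42 to 1.91, and Slamf1, a receptor also found on T cells, at 0.04 to 0.46 and 0.63 to 0.72, so that the order of the genotypes was not the same for both. Kit, named after its values were seen, overlapped between genotypes at -1.88 to 0.81 and -2.70 to -1.51. The 8 erythroid markers summed to 0.596 to 1.25 in cKO and 0.303 to 0.494 in control cells. The mean level of Hbb-b1, a globin, was -0.73 in cKO and -2.83 in control cells, whereas Hba-a1, another globin, was well above background on 0 cKO and 2 control arrays. Klf1, an erythroid factor, was well above background on 1 cKO array, and Ahsp, Alas2 and Epb4.2 on none. The 6 epithelial markers summed to 1.42 to 2.09 in cKO and 0.882 to 0.974 in control cells, led by Cdh1, Epcam and Krt18, with Krt5 and Krt8 not well above background on any array. The part of these lists in the differences of the members was not tested.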

How the data were processed

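Gene expression was measured in iTreg cells of 3 cKO and 3 control mice, with 0.5 µg of RNA and 1 array per mouse. The intensities deposited by the authors are linear processed signals of Agilent Feature Extraction (9.1 in the submitters' processing notes, 10.7.3.1 in the file headers), background-subtracted and not normalized between arrays. The deposited flags (well above background, saturated, outlier) were used as given, other values of the scanner files were not. A deposited table of log2 values, whose columns all have a median of 6.15 and correlate at 0.998 or higher with the signals, served as an alternative, its normalization being not given in the sources used here. All its columns were assigned, which left 0 unassigned.

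Outlier spots (123 to 140 per array) were dropped, spots of a probe averaged on the log2 scale, and each array's 75th percentile over probes subtracted. No spot was saturated (0 per array). Probes well above background on at least 3 arrays were tested in R 4.3.3 with lmFit and eBayes of limma 3.58.1, at a threshold of 0.05 on Benjamini-Hochberg p-values. The steps were tested on simulated data. A gene was given by its brightest tested probe. The array design supplied the gene symbols and the mm9 coordinates. The number of arrays limits the precision. Tables and figures used Python 3.11.15, pandas 2.3.3, numpy 2.4.6 and matplotlib 3.10.9.

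The members and lists were chosen with earlier results of these data known. Named were all member probes, the 3 brightest genes of each list described and any past the threshold, markers that defined a cell type or were not above background, and the 5 probes nearest to H19 in profile; other names are marked where they occur. Replicate numbers were not used to pair the mice in the main fit. The deviations of same-numbered arrays from their group means correlated at -0.14, 0.01 and -0.19. These values cannot settle whether the mice or cultures were paired. Alternatives were quantile or median scaling, normexp (offset 50), the deposited log2 table, other filters, the methods' t-test, trend and robust fitting, slide or replicate blocks, omission of each array, gene means and, added after seeing the data, the percentile over spots.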

Additional observations from a re-analysis of the deposited data

How the results depend on the processing

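No member other than H19 passed the adjusted threshold under any of the 19 alternatives tried for the count, and the H19 difference stayed negative under all 19 of its own. H19 differed by -1.16 after normexp with 75th-percentile scaling, and by -3.80 to -1.88 when 1 array was left out, the ends being without cKO 1 and without cKO 3. Signs turned for Cdkn1c (0.30 after normexp with 75th-percentile scaling, 0.18 with slide as a block, 0.18 within the slide that held both genotypes, 0.19 without cKO 2 and -0.36 without cKO 1), for Igf2 (0.51 after the same normexp scaling) and for Plagl1 (0.04 without cKO 3 and -0.52 without cKO 2). With the slide as a block, the fitted differences are those within the shared slide by construction. The replicate block left the H19 difference at -2.93 and called 0 probes. The number of all probes called, 29 as reported, was 79 with median scaling, 54 with the percentile over spots, 98 with trend and robust fitting, 112 after normexp with quantile normalization and 175 among probes well above background on all arrays. It was 0 after normexp with 75th-percentile scaling, with the slide as a block, without a filter and with the methods' t-test, and 0 to 1 when 1 array was left out. The cause was not tested, and the filters also changed the number of probes tested. With 3 mice per genotype and members near the background, differences of moderate size could have been missed.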
